A study of Mus musculus with 4 samples.

Results

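The genes described here encode the proteins of the mitochondrial ribosome. They were taken as every gene of the deposited expression tables whose symbol starts with Mrpl or Mrps and a number, without pseudogene entries and unnamed clones. This gave 76 of 23259 genes, 47 named Mrpl for the large subunit and 29 named Mrps for the small subunit. By role, Mrps30 and Mrps18a were counted with the large subunit despite their names. Mrps36 was counted with neither subunit, since later work assigned it to the oxoglutarate dehydrogenase complex. RNA was measured by sequencing total RNA, depleted of ribosomal RNA, from 4 clones of mouse embryonic stem (ES) cells with or without Gcn5 (Kat2a), the acetyltransferase subunit of the SAGA and ATAC complexes, which modify histones, to find transcripts whose level changes without it. All 4 clones descended from male ES cells that were homozygous for a floxed Gcn5 allele, derived as founder lines 6 and 4 and kept on feeder fibroblasts in medium with serum and LIF. After transient expression of a GFP-Cre fusion and sorting at 72 hours, the KO clones 6C4 (line 6) and 4C2 (line 4) were picked from GFP-positive cells and lack exons 3 to 18 of Gcn5 on both alleles. The WT clones 6-1 (line 6) and 4-1 (line 4) were picked from GFP-negative cells and keep the floxed alleles. Each group therefore holds 2 clones, 1 per line, and each line holds 1 KO and 1 WT clone. The strain of the mice and the passage of the clones are not given in the sources used here.

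The mitochondrial ribosome, or mitoribosome, is built from rRNA that is transcribed from mitochondrial DNA and from proteins that are encoded in the nucleus and imported. It translates the few mRNAs of mitochondrial DNA, which encode core subunits of the respiratory chain and of ATP synthase. Many of its proteins descend from bacterial ribosomal proteins, and others were added after the bacterial ancestor of mitochondria was taken up and have no bacterial counterpart.

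Kat2a was listed at 11.5 FPKM, the read fragments per transcript length and library size, in each KO clone, against 34.4 and 38.7 FPKM in the WT clones of lines 6 and 4. It was lower in KO in 2 of 2 lines (log2 fold change -1.58, SE 0.23, limma adjusted p = 0.0112). All 18 ES cell markers reached 1 FPKM, with a summed level of 3927 and 3703 FPKM in the KO clones of lines 6 and 4, against 4749 and 5826 FPKM in the WT clones. Of 30 markers of fibroblasts, the cell type of the feeder layer, 28 reached a mean of 1 FPKM. Their summed level was 705 and 490 FPKM in the KO clones of lines 6 and 4, against 599 and 708 FPKM in the WT clones, so that it was higher in KO in line 6 and lower in KO in line 4. Summed over all genes, the KO clones of lines 6 and 4 had 538257 and 520491 FPKM, against 680168 and 757931 FPKM in the WT clones. Per the file headers the values are normalized to spike-ins, and sequencing depth is unknown, since the steps of FPKM depend on gene length and give no counts. In such bulk samples, fewer cells of a type and less RNA per cell cannot be told apart.

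All 76 members passed the filter for testing, a mean level of 1 FPKM or more, as did 11932 genes in all. FPKM is a value per transcript length, so levels can be set side by side between genes. The mean level ran from 4.77 FPKM for Mrpl41 to 143.7 FPKM for Mrpl42, a 30.1-fold range with a median of 34.7 FPKM, and 46 members lay between 20 and 50 FPKM. The highest member, Mrpl42, a large-subunit protein without a bacterial counterpart, was listed at 131 and 131 FPKM in the KO clones of lines 6 and 4, against 147 and 166 FPKM in the WT clones. Next came 3 large-subunit proteins with bacterial counterparts. Mrpl24 had 83.4 and 100.3 FPKM in the KO clones of lines 6 and 4, against 103 and 121 FPKM in the WT clones. Mrpl13 had 84.2 and 72.3 FPKM in the KO clones, against 104 and 97.4 FPKM in the WT clones, and Mrpl18 had 87.3 and 65.8 FPKM in the KO clones, against 101 and 88.4 FPKM in the WT clones. In Mrpl42 and Mrpl13 both KO clones lay below both WT clones, and in Mrpl24 and Mrpl18 as well, where the gap between the groups was smaller than the gap between the KO clones. The lowest members were Mrpl41, a large-subunit protein without a bacterial counterpart, Mrpl19, Mrps25 and Mrpl17. Mrpl41 was listed at 5.19 and 3.88 FPKM in the KO clones of lines 6 and 4, against 5.52 and 4.49 FPKM in the WT clones, so the groups overlapped. The means of the other 3 of the lowest members were 7.59, 7.97 and 8.51 FPKM for Mrpl19, Mrps25 and Mrpl17. In the GENCODE annotation, exons of 32 of the 76 members overlap those of other gene models, in 27 on the opposite strand. Of the genes named here, these include Mrpl24, Mrpl13, Mrpl18, Mrpl19 and Mrps25, and not Mrpl42, Mrpl41 or Mrpl17. The authors' counting is not stated to use strand, so such levels may include reads of the other gene. The order of levels was nearly the same in all clones: across the 76 members log2 levels correlated at r = 0.991 between KO and WT of line 6 and at r = 0.994 in line 4, against 0.966 between the KO clones and 0.963 between the WT clones. These correlations describe genes of the same libraries, which are not independent replicates.

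**Figure D1:**
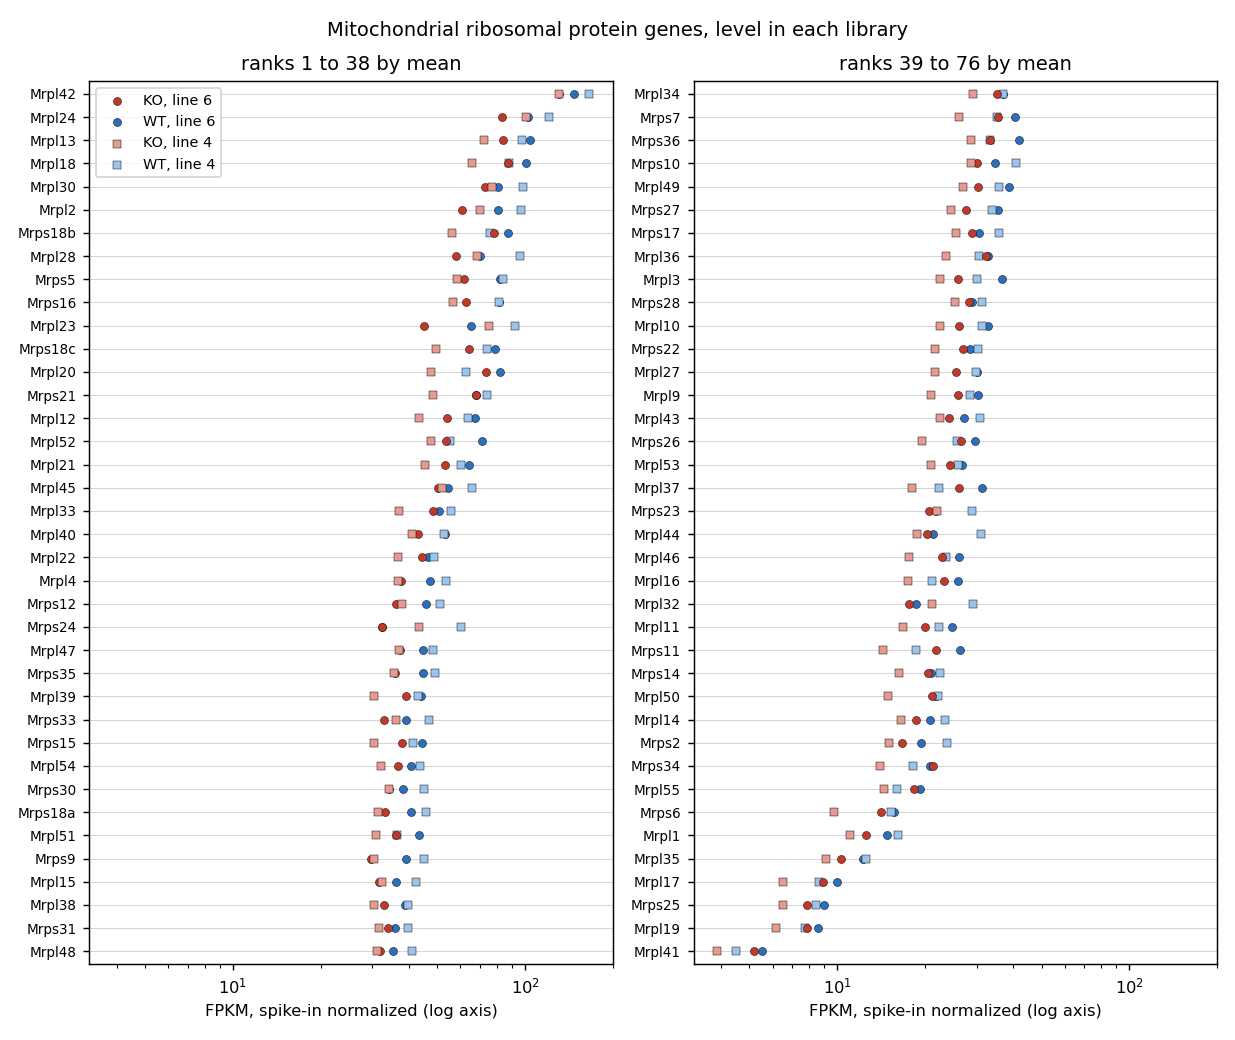
Level of each of the 76 mitochondrial ribosomal protein genes in each clone, on a log axis of spike-in normalized FPKM, with genes ordered by their mean over the 4 libraries. Each gene has 4 points, KO and WT of line 6 as circles and KO and WT of line 4 as squares. The means span 4.77 to 143.7 FPKM, and the KO point of a line lies left of its WT point for nearly all genes.

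On the deposited scale, transcripts of mitochondrial ribosomal proteins were less abundant in KO clones than in WT clones, by about as much as transcripts in general, and no member passed the test. The summed level of the 76 members was 2811 FPKM in the KO clone and 3287 FPKM in the WT clone of line 6, a ratio of 0.855, and 2552 FPKM in the KO clone and 3426 FPKM in the WT clone of line 4, a ratio of 0.745. For all genes these ratios were 0.791 in line 6 and 0.687 in line 4. In both lines 74 of 76 members were lower in KO, against 86.3% of all tested genes, the exceptions being Mrps24 and Mrps34 in line 6. In 59 members both KO values lay below both WT values, which held for 59.8% of all tested genes. The log2 fold change of KO over WT, on log2(FPKM + 1), had a median of -0.31 over the members and -0.32 over all tested genes, and ran from -0.46 for Mrps9 to -0.10 for Mrpl55. This direction belongs to the deposited scale: the members' median was 0.00046 with each library centred on its median gene, 0.041 relative to genes of like abundance and 0.044 after quantile normalization. Under limma 0 of 76 members passed in either direction at an adjusted p under 0.05, where the background was 0.0168% lower and 0% higher in KO. The adjusted p of the members lay between 0.445 and 0.725. At an unadjusted p under 0.05, 2 members were lower in KO, Mrps5 and Mrps16, against 5.46% of all tested genes, and 0 members were higher, against 0.0838%. A level at least 1.5-fold lower in KO was seen in 0 members in line 6, against 3.8% of tested genes, and in 5 members in line 4, against 30.9%. These were Mrpl33, Mrpl44, Mrps2, Mrps21 and Mrps6, with KO/WT ratios of 0.601 for Mrpl44 to 0.665 for Mrpl33. The shift shared by most genes moves with the summed FPKM of the clones, and its part in the members' differences was not tested beyond the values relative to other genes given next.

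The 4 members with the lowest p were Mrps5, Mrps16 and Mrps9, small-subunit proteins with bacterial counterparts, and Mrpl2, a large-subunit protein that lies near the peptidyl transferase centre. Mrps5 was listed at 62 and 58.6 FPKM in the KO clones of lines 6 and 4, against 82.2 and 83.9 FPKM in the WT clones. Mrps16 was listed at 62.8 and 56.6 FPKM in the KO clones, against 81.6 and 81.2 FPKM in the WT clones. The clones of each genotype were close to each other in both genes and the groups did not overlap, with a mean of 60.3 ± 2.34 FPKM in KO and 83.1 ± 1.24 FPKM in WT for Mrps5 (SD, n = 2 each). Mrps9 was listed at 29.7 and 30.5 FPKM in the KO clones of lines 6 and 4, against 39 and 45 FPKM in the WT clones. Mrpl2 was listed at 61.1 and 70.2 FPKM in the KO clones, against 80.8 and 97.2 FPKM in the WT clones. The groups did not overlap in these genes either, and in Mrpl2 line 6 lay below line 4 in each genotype. The log2 fold changes were -0.46 (SE 0.21) for Mrps5, -0.44 (SE 0.21) for Mrps16, -0.46 (SE 0.22) for Mrps9 and -0.43 (SE 0.21) for Mrpl2, each with a limma adjusted p of 0.445, which did not pass.

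To set the members against genes of like abundance, each gene's log2 difference between KO and WT of a line was taken relative to the median difference of the 200 tested non-member genes nearest to it in mean log2 level. With 1 clone per genotype and line, these values are a description without a test. Transcripts of mitochondrial ribosomal proteins lay close to such genes in line 6, where the members' median was 0.022, and a little above them in line 4, where it was 0.068, while the median over all tested genes was -0.00050 in line 6 and 0.00020 in line 4. A value of 0.068 on this scale means that KO lay less far below WT in the median member than in its neighbours. In line 6, 42 of 76 members lay above genes of like abundance, against 49.7% of all tested genes, and in line 4, 58 members did, against 50.1%. In both lines 33 members lay above, against 25.2% of tested genes, and 9 lay below, against 25.4%. The remaining 34 members lay above in one line and below in the other, as did 5895 of the 11932 tested genes. The spread was narrower than among genes at large: the interquartile range was 0.144 in line 6 and 0.113 in line 4 over the members, against 0.169 and 0.188 over all tested genes. It was narrower still over oxidative phosphorylation subunits, at 0.138 and 0.104, and over cytoplasmic ribosomal proteins, at 0.065 and 0.090. Over the other mitochondrial lists described below it ran from 0.070 to 0.19 in line 6 and from 0.13 to 0.20 in line 4. A narrow spread was thus not particular to the members. How far a member lay from its neighbours in one line said little of the other line (r = 0.0052 and rho = 0.095 over 76 members, r = 0.064 and rho = 0.024 over all tested genes).

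**Figure D2:**
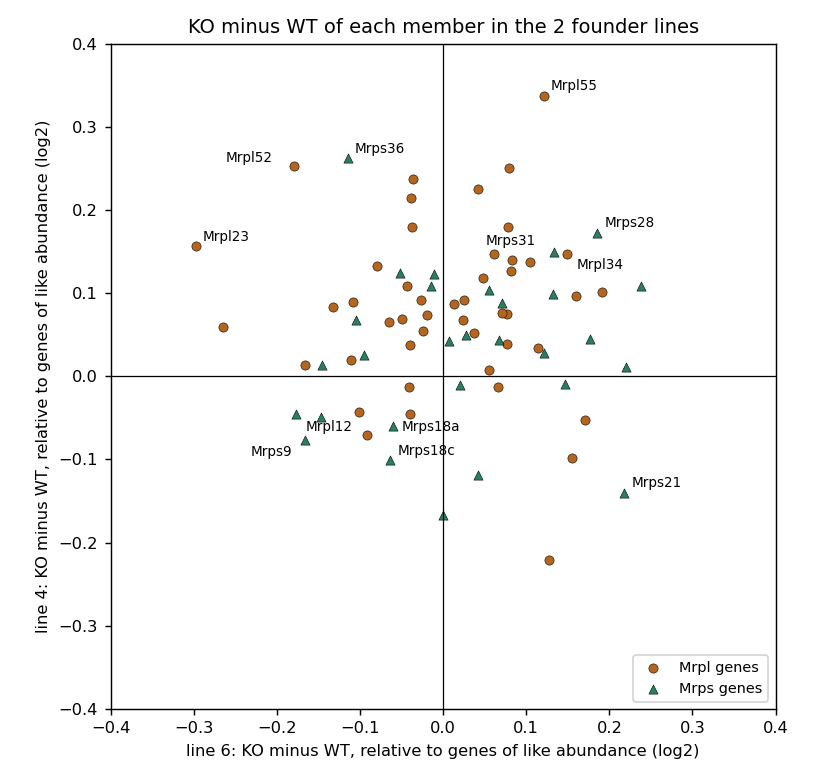
KO minus WT of each mitochondrial ribosomal protein gene relative to genes of like abundance, in log2 units, with line 6 on the horizontal and line 4 on the vertical axis. Circles are Mrpl genes, triangles Mrps genes, and the named genes are those farthest from 0 in both lines or farthest apart between the lines. Of the 76 points, 33 lie above 0 in both lines, 9 below 0 in both lines and 34 on opposite sides.

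By role, proteins without a bacterial counterpart had higher medians relative to genes of like abundance than proteins with one. Of the 27 without a counterpart in either subunit, 17 lay above in line 6 and 24 in line 4, with medians of 0.066 and 0.10, and 0 lay below in both lines. Of the 46 with a counterpart, 24 lay above in line 6 and 32 in line 4, with medians of 0.0036 and 0.052, and 8 lay below in both lines. Over all tested genes 49.7% lay above in line 6, 50.1% lay above in line 4 and 25.4% lay below in both lines. Mrps36, Mrps18a and Mrps18b were placed in neither class, and of these Mrps18a lay below in both lines. The difference between these classes was not tested. Among large-subunit proteins the medians in lines 6 and 4 were -0.022 and 0.071 for the 30 with a counterpart, and 0.068 and 0.091 for the 18 without. Among small-subunit proteins they were 0.013 and -0.010 for the 16 with a counterpart, and 0.055 and 0.10 for the 9 without. All 9 small-subunit proteins without a counterpart lay above genes of like abundance in line 4, as did 25 of the 30 large-subunit proteins with one. For the 49 large-subunit and the 26 small-subunit proteins as wholes, the medians were 0.024 and 0.024 in line 6, and 0.084 and 0.035 in line 4. Of the 76 members, 0 passed the test in any of these classes.

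Members on the same side of genes of like abundance in both lines were ranked by the smaller of their 2 distances. By this rule the members farthest below were Mrps9, Mrpl12, Mrps18c and Mrps18a, and those farthest above were Mrps28, Mrpl34, Mrps31 and Mrpl55. Mrps5, at -0.18 in line 6 and -0.046 in line 4, and Mrps16, at -0.15 and -0.049, lay farther below than Mrpl12 in line 6 and less far in line 4. The promoters of the 2 outermost members of each kind with a promoter in the table used are shown to give the sequence context of genes at either end. They were read from RefSeq, build GRCm38.p6, from 250 bases before to 50 bases after the gene's start, all on the plus strand: Mrps9 at chr1:42850983-42851282, Mrpl12 at chr11:120484387-120484686, Mrpl34 at chr8:71464676-71464975 and Mrps31 at chr8:22411090-22411389. Capitals mark a match to the motif of the respiratory factor NRF1 (GCGCA and GCGC around 1 free base, in Mrps9 and Mrpl12 on the other strand) or of ETS factors (CCGGAAG, in Mrpl34), and the promoter of Mrps31 held no match to the 4 motifs searched.
Mrps9: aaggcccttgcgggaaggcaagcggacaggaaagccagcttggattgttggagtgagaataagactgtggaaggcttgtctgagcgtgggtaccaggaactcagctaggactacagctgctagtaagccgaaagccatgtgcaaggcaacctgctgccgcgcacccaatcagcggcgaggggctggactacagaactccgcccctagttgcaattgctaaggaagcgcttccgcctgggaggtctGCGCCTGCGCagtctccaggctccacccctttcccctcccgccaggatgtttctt
Mrpl12: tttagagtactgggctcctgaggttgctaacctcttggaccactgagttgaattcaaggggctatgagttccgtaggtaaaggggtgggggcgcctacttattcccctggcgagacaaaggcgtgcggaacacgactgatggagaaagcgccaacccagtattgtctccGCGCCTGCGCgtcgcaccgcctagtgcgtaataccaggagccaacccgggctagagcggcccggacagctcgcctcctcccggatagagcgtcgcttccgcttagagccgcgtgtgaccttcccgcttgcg
Mrpl34: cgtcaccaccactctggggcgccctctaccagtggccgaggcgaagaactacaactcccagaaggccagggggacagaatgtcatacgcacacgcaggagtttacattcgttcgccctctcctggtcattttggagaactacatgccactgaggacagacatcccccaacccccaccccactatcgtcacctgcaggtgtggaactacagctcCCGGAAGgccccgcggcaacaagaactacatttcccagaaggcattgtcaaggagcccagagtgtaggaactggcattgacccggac
Mrps31: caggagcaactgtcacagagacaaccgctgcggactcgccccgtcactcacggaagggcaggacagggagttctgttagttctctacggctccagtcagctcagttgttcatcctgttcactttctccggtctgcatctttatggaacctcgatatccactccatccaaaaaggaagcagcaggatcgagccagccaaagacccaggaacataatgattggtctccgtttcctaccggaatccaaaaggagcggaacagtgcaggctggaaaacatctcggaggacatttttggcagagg

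Mrpl12, the stalk protein that contacts translation factors, was listed at 54.2 and 43.4 FPKM in the KO clones of lines 6 and 4, against 67.6 and 63.8 FPKM in the WT clones. Both KO clones lay below both WT clones. Its difference relative to genes of like abundance was -0.091 in line 6 and -0.071 in line 4, and that of Mrps9, whose levels are given above, was -0.17 in line 6 and -0.076 in line 4. Exons of Mrpl12 overlap a gene model on the opposite strand in the GENCODE annotation, and the authors' counting is not stated to use strand, so its reads may include those of the other gene. Mrps28, a small-subunit protein, was listed at 28.3 and 25.3 FPKM in the KO clones of lines 6 and 4, against 28.9 and 31.2 FPKM in the WT clones. Mrpl34 was listed at 35.3 and 29.2 FPKM in the KO clones, against 36.9 and 36.8 FPKM in the WT clones. Mrps31 was listed at 33.9 and 31.7 FPKM in the KO clones, against 35.8 and 39.8 FPKM in the WT clones. In these 3 genes KO lay below WT in each line, by little in line 6 and by more in line 4, and the groups did not overlap. Relative to genes of like abundance Mrps28 lay at 0.19 in line 6 and 0.17 in line 4, Mrpl34 at 0.15 and 0.15, and Mrps31 at 0.13 and 0.15. Mrpl55, a large-subunit protein, was listed at 18.3 and 14.4 FPKM in the KO clones of lines 6 and 4, against 19.2 and 16.0 FPKM in the WT clones, so the groups overlapped. It lay at 0.12 in line 6 and at 0.34 in line 4, the highest value of any member there. The limma adjusted p of KO against WT for these 6 genes was 0.445 for Mrps9 and Mrpl12, 0.574 for Mrps28, 0.512 for Mrpl34, 0.501 for Mrps31 and 0.725 for Mrpl55.

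Promoters of 67 of the 76 members were matched in the RefSeq table. Each motif was searched on both strands in the same window, and a gene with several promoters counted once. The NRF1 motif was in 12 of 67 members (17.9%), against 5.19% of the 27025 genes of the table. Those genes were not limited to the 11932 tested ones, while every member was tested. The shares among tested genes were not counted, so the motif shares below are not shown to be particular to the members. The ETS motif CCGGAAG, bound by factors such as GABP, was in 24 (35.8%, against 9.93%), and the YY1 motif AAGATGGCG in 8 (11.9%, against 1.64%). The E-box CACGTG, which reads the same on both strands and is bound by Myc among others, was in 5 (7.46%, against 8.09%). At least 1 of the 4 motifs was in 41 members (61.2%, against 21.3%). The values relative to genes of like abundance were also split by motif. For NRF1 the medians were 0.061 with and 0.00024 without the motif in line 6, and 0.021 and 0.068 in line 4. For ETS they were 0.031 with and 0.013 without in line 6, and 0.068 and 0.074 in line 4. For the E-box they were -0.037 with and 0.022 without in line 6, and 0.076 and 0.068 in line 4, and for YY1 -0.039 with and 0.024 without in line 6, and 0.069 and 0.068 in line 4. In line 6 members with the NRF1 or ETS motif thus had the higher median, and members with the E-box or YY1 motif the lower one, in groups of 5 to 24 members and without a test. A match describes the letters of the window and is no evidence of binding.

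Vertebrates carry 3 mitochondrial paralogs of bacterial protein S18, of which Mrps18b and Mrps18c lie in the small subunit and Mrps18a in the large subunit. Mrps18b was listed at 78.4 and 56.1 FPKM in the KO clones of lines 6 and 4, against 87.6 and 75.8 FPKM in the WT clones. Mrps18c was listed at 64.4 and 49.6 FPKM in the KO clones, against 78.9 and 74.0 FPKM in the WT clones. Mrps18a was listed at 33.2 and 31.3 FPKM in the KO clones, against 40.8 and 45.8 FPKM in the WT clones. The groups overlapped in Mrps18b, where KO of line 6 lay above WT of line 4, and not in the other 2. Mrps18c lay at -0.064 in line 6 and -0.10 in line 4 relative to genes of like abundance and Mrps18a at -0.061 and -0.059, while Mrps18b lay at 0.067 and 0.044. None of the 3 passed the test of KO against WT (limma adjusted p = 0.445 each). Reads that these paralogs share, and those of gene models that overlap exons of Mrps18b and Mrps18c, could have been split or added by the authors' counting.

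The members whose differences between KO and WT lay farthest apart between the lines, relative to genes of like abundance, were Mrpl23, Mrpl52, Mrps36 and Mrps21. Mrpl23, a protein at the exit of the peptide tunnel, was listed at 45.2 and 75.1 FPKM in the KO clones of lines 6 and 4, against 65.3 and 92.7 FPKM in the WT clones. KO lay below WT in each line, and the WT clone of line 6 lay below the KO clone of line 4. Relative to genes of like abundance it lay at -0.30 in line 6, the lowest value of any member there, and at 0.16 in line 4. Mrpl52, a large-subunit protein without a bacterial counterpart, was listed at 53.8 and 47.5 FPKM in the KO clones of lines 6 and 4, against 71.3 and 55.5 FPKM in the WT clones. Mrps36, named as a ribosomal protein and assigned in later work to the oxoglutarate dehydrogenase complex, was listed at 33.2 and 28.6 FPKM in the KO clones, against 41.9 and 33.3 FPKM in the WT clones. Both lay below genes of like abundance in line 6, at -0.18 for Mrpl52 and -0.11 for Mrps36, and above them in line 4, at 0.25 and 0.26. Mrps21, a small-subunit protein, went the other way. It was listed at 68.0 and 48.4 FPKM in the KO clones of lines 6 and 4, against 68.1 and 73.8 FPKM in the WT clones, so that only line 4 showed a gap, and it lay at 0.22 in line 6 and -0.14 in line 4. With 1 pair of clones per line the difference between lines could not be tested. Mrpl23 and Mrps36 have annotated pseudogene copies, whose reads the authors' counting could have shared with them.

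Other genes of mitochondrial translation were set beside the members. The medians relative to genes of like abundance in lines 6 and 4 were -0.045 and 0.086 for the 8 mitoribosome proteins with other names, -0.019 and 0.055 for 13 translation factors, and -0.0065 and 0.048 for 22 assembly and rRNA modification factors. They were -0.053 and -0.0074 for 20 mitochondrial aminoacyl-tRNA synthetases, and 0.038 and 0.022 for the 14 of 16 genes of mitochondrial transcription and the nucleoid that were tested. The first list also counts Oxa1l, which binds the mitoribosome and is not one of its subunits. The first 3 lists lay below 0 in line 6 and above 0 in line 4. Of these lists, 0 genes passed the test of KO against WT. Those with the lowest p in each list are given with their values. Chchd1, a small-subunit protein, was listed at 67.2 and 54.4 FPKM in the KO clones of lines 6 and 4, against 93.7 and 73.2 FPKM in the WT clones, and lay at -0.25 in line 6 and 0.043 in line 4. Ptcd3, a small-subunit protein of the pentatricopeptide repeat family, had log2 differences from genes of like abundance of -0.0094 and -0.017, and Tufm, the elongation factor that brings aminoacyl-tRNA to the ribosome, of 0.020 and -0.0059. For Guf1, a factor related to bacterial LepA, they were -0.028 and -0.13. Fastkd2, which is needed for the large mitoribosomal rRNA, was listed at 19.9 and 15.0 FPKM in the KO clones of lines 6 and 4, against 22.7 and 28.5 FPKM in the WT clones, and lay at 0.0025 in line 6 and -0.41 in line 4. The distance between lines in Fastkd2 was larger than that of most members, and the groups did not overlap. For C1qbp the values in lines 6 and 4 were -0.029 and -0.090, for Yars2 -0.26 and -0.043, for Tars2 -0.083 and -0.0082, for Gabpa, an ETS factor, -0.038 and -0.095, and for Peo1, the mitochondrial DNA helicase, -0.038 and -0.23. The limma adjusted p was 0.445 for each of these 10 genes.

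Cytoplasmic ribosomal proteins and subunits of oxidative phosphorylation, the partners of the mitoribosome in protein synthesis and in the respiratory chain, were compared as well. Each list held 84 genes, of which 80 of oxidative phosphorylation and 83 of cytoplasmic ribosomal proteins were tested. Summed over all 84 oxidative phosphorylation genes the KO/WT ratio was 0.844 in line 6 and 0.703 in line 4. Over all 84 cytoplasmic ribosomal protein genes it was 0.777 and 0.666, against 0.855 and 0.745 for the members. Relative to genes of like abundance the medians in lines 6 and 4 were -0.00090 and -0.018 for oxidative phosphorylation, and -0.0072 and -0.023 for cytoplasmic ribosomal proteins. Of these, 25 of 80 and 31 of 83 tested genes lay below in both lines, against 9 of the 76 members and 25.4% of all tested genes. In the nearer lists above, 1 of 8 mitoribosome proteins with other names, 2 of 13 translation factors and 4 of 20 aminoacyl-tRNA synthetases did. So did 6 of 22 assembly and rRNA modification factors and 4 of 14 genes of mitochondrial transcription and the nucleoid. A low count was thus not particular to the members. At an unadjusted limma p under 0.05, 69 cytoplasmic ribosomal protein genes and 12 oxidative phosphorylation genes were lower in KO. This compares with 2 of the 76 members and 5.46% of all tested genes. With adjustment, 0 genes of either list passed limma. With the founder line as a block, 5 cytoplasmic ribosomal protein genes passed and were lower in KO, against 0.796% of all tested genes: Rpl37a (limma adjusted p = 0.0108), Rps24 (0.0260), Rpl8 (0.0303), Rps12 (0.0352) and Rps16 (0.0390). No oxidative phosphorylation gene and no member did, and that fit gave every gene the spread of its level. Of the cytoplasmic ribosomal protein genes, 74 were among the 200 genes of the highest level, so their neighbours in level were few and partly each other, while 0 mitochondrial ones were. The differences between these lists and the members were not tested.

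**Figure D3:**
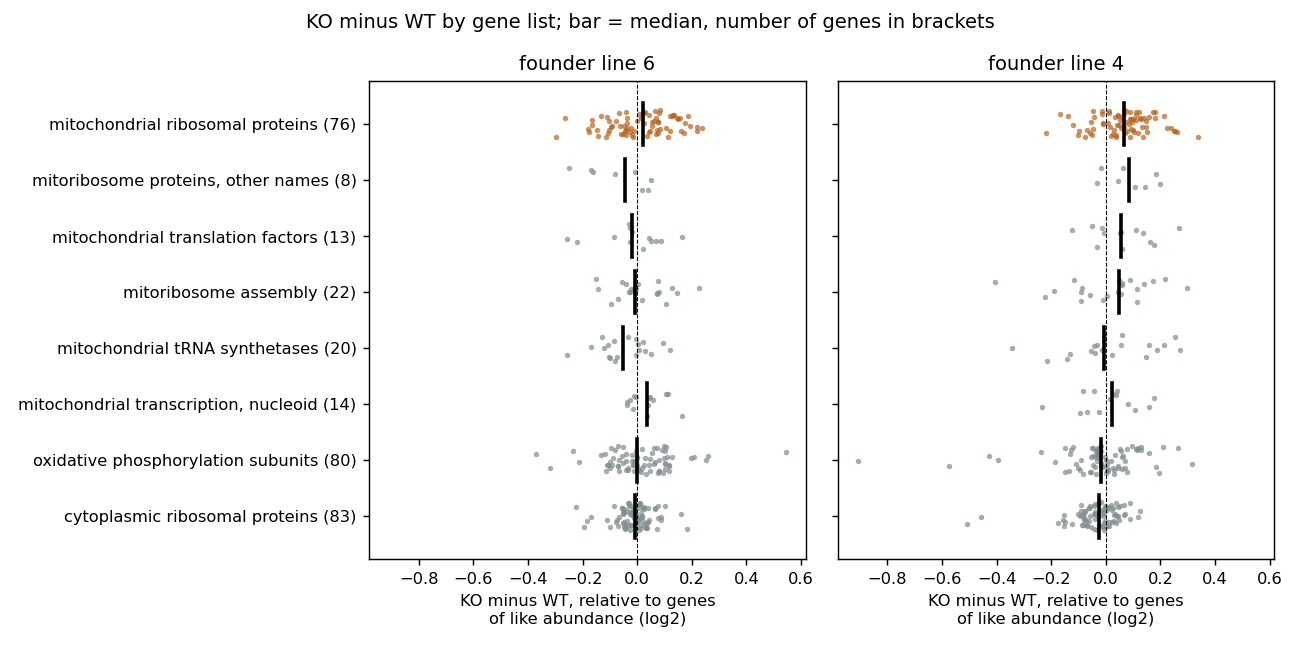
KO minus WT relative to genes of like abundance, in log2 units, for each gene of 8 lists, with line 6 on the left and line 4 on the right. Points are genes, black bars are medians, and the number of tested genes stands in brackets. The bar of the mitochondrial ribosomal proteins lies at 0.022 in line 6 and 0.068 in line 4.

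Between the founder lines, 2 members passed the test and were lower in line 6. Mrps24, a small-subunit protein, was listed at 32.4 and 32.3 FPKM in the KO and WT clones of line 6, against 43.4 and 60.3 FPKM in the KO and WT clones of line 4. Mrpl23 was listed at 45.2 and 65.3 FPKM in the KO and WT clones of line 6, against 75.1 and 92.7 FPKM in those of line 4. In both genes each clone of line 6 lay below each clone of line 4. The log2 fold change of line 6 over line 4, with genotype as a covariate, was -0.64 (SE 0.20, limma adjusted p = 0.0212) for Mrps24 and -0.61 (SE 0.20, limma adjusted p = 0.0250) for Mrpl23. These 2 of 76 members compare with 5.46% of all tested genes lower in line 6, and 0 members were higher, against 3.67% (9.13% in either direction). Without the genotype covariate 0 members passed, against 1.98% of tested genes in either direction. With any 1 library left out, in fits that also drop genotype, 0 to 1 members passed. The test as deposited gave every gene the spread of its level, and each line is 1 pair of clones. Exons of Mrps24 overlap those of Urgcp on the same strand in GENCODE, and Mrpl23 has a pseudogene copy.

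Relative to genes of like abundance, 9 members passed between the lines, 6 higher and 3 lower in line 6, against 23.5% of all tested genes in either direction. The higher ones were Mrps11, Mrpl37, Mrpl20, Mrps34, Mrpl17 and Mrps7 and the lower ones Mrps24, Mrpl32 and Mrpl28. Mrpl23 then had a limma adjusted p of 0.0504. After centring each library on its median gene 19 members passed, against 29.6% of tested genes, and after quantile normalization 15 did, against 28.7%. In all, 9 members passed on all 3 rescaled sets, and 1 of these, Mrps24, passed as deposited too. Mrps11, a small-subunit protein, was listed at 21.8 and 26.4 FPKM in the KO and WT clones of line 6, against 14.3 and 18.6 FPKM in those of line 4. Mrpl20, a large-subunit protein, was listed at 73.8 and 81.9 FPKM in line 6, against 47.8 and 62.9 FPKM in line 4, in the KO and WT clones of each. Mrpl37, a large-subunit protein without a bacterial counterpart, was listed at 26.1 and 31.3 FPKM in line 6, against 18.0 and 22.3 FPKM in line 4, again in the KO and WT clones of each. In these 3 genes each clone of line 6 lay above each clone of line 4. As deposited their log2 fold changes were 0.53, 0.49 and 0.49 for Mrps11, Mrpl20 and Mrpl37, with limma adjusted p of 0.0971, 0.0907 and 0.125, which did not pass. Mrpl32, a large-subunit protein that the m-AAA protease matures before assembly, was listed at 17.6 and 18.6 FPKM in the KO and WT clones of line 6, against 21.1 and 29.0 FPKM in those of line 4. Each clone of line 6 lay below each clone of line 4, at a log2 fold change of -0.43 (limma adjusted p = 0.210 as deposited and 0.0393 relative to genes of like abundance). Exons of Mrps11 and Mrpl46 overlap on opposite strands, and in line 6 over line 4 Mrpl46 had a log2 fold change of 0.25 as deposited.

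Over the whole group, all values of line 6 lay above those of line 4 in 13 members, against 16.3% of tested genes, and below in 4, against 17.4%. Line 6 was above line 4 relative to genes of like abundance in both genotypes in 42 members, against 40% of tested genes, and below in 22, against 40%. The difference between the lines in the KO clones went with that in the WT clones across members (r = 0.80 over 76 members, 0.70 over all tested genes), as a description of libraries that share founder lines. This contrasts with r = 0.0052 for the difference between KO and WT in the 2 lines. In 17 members (22.4%) the log2 fold change between lines was larger in size than that between KO and WT, both as deposited. The KO change there includes the shift shared by most genes. The share over all tested genes was not counted, so this is not a trait particular to the members. The feeder fibroblast markers, which also differed between clones, had medians of 0.49 in line 6 and 0.047 in line 4 for KO minus WT relative to genes of like abundance, with 28 of 28 tested markers above in line 6 and 19 in line 4. The summed ES cell markers had KO/WT ratios of 0.827 in line 6 and 0.636 in line 4, against 0.791 and 0.687 for all genes. Relative to genes of like abundance their medians were -0.016 in line 6 and -0.12 in line 4, with 7 and 5 of 18 markers above. The part of either marker set in the members' differences was not tested.

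**Figure D4:**
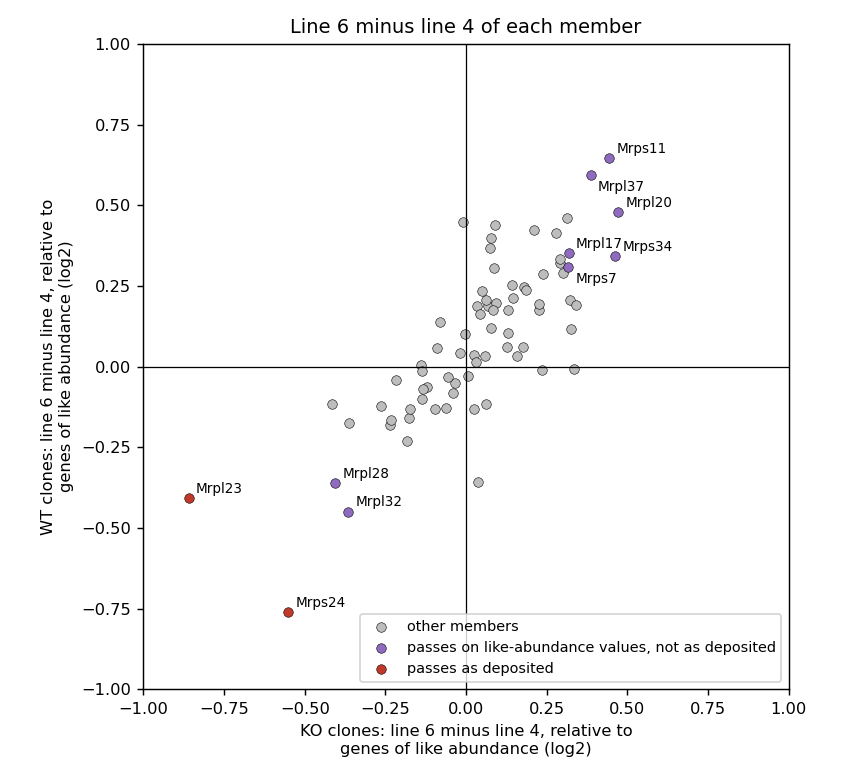
Line 6 minus line 4 of each of the 76 members relative to genes of like abundance, in log2 units, in the KO clones on the horizontal axis and in the WT clones on the vertical axis. Red points passed limma as deposited, purple points passed on values relative to genes of like abundance and not as deposited, and grey points are the other members. The points lie along the diagonal (r = 0.80), with Mrps24 and Mrpl23 at the lower left and Mrps11, Mrpl37 and Mrpl20 at the upper right.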

How the data were processed

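Per the file headers, the authors deposited spike-in normalized FPKM, 1 value per gene. The submitters' processing notes name build mm9 and the tools edgeR, HTSeq, affy, TopHat2 2.0.9 and Bowtie 0.12.8 without their roles. The use of the spike-ins and of strand were not given in the sources used here. Of 23376 entries per file, 92 spike-ins and 25 entries without a partner were left out. On the log2(FPKM + 1) scale, where changes of low genes are understated, genes averaging 1 FPKM or more were tested with limma 3.58.1 in R 4.3.3 (eBayes with a trend, two-sided, Benjamini-Hochberg over 11932 genes, threshold 0.05), KO against WT without covariate and line 6 against line 4 with genotype. The KO fits were run on simulated data with changes of 1 and 2 log2 units, of which 100% were recovered. False calls made up 0% of calls without and 4.76% with the block. Changes of the members' size, -0.46 to -0.10, were not simulated. The simulated data also held no shift shared by most genes, and their spread between clones was set by hand rather than taken from these clones. The recovery therefore does not say what share of changes the fits would find in these data. It does not bear on the lack of members past the test. Replicate numbers are founder lines, per the clone names in the labels, so they pair the samples (deviations of same-numbered clones correlated at r = 0.695); the block is an alternative. P-values of KO against WT rest on 2 clones per group, which stem from different lines. Promoters came from RefSeq GRCm38.p6 and overlaps and lengths from GENCODE M21, by symbol. Named genes were every member past a test, the extremes of level, of p, of distance from genes of like abundance and of distance between lines, the S18 paralogs, and 2 genes of each other mitochondrial translation list. The members, lists and tests were chosen with earlier results of these data known. Scaling, filter, pseudocount, neighbours, block and left-out libraries were varied.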

Additional observations from a re-analysis of the deposited data

Results flagged for a closer look

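With 1 pair of clones per line, the differences between lines in this section were not tested. Each stands here because KO minus WT had opposite signs in the 2 lines. Relative to genes of like abundance, opposite signs were common, in 34 of the 76 members and in 5895 of the 11932 tested genes. The line 6 values of Mrps24, Mrps34 and the assembly list below were small in size. Relative to genes of like abundance, Mrpl23 lay at -0.30 in line 6 and 0.16 in line 4, Mrpl52 at -0.18 and 0.25, and Mrps36 at -0.11 and 0.26. Mrps21 lay the other way, at 0.22 in line 6 and -0.14 in line 4. As deposited, the log2 difference of Mrps24 was 0.0013 in line 6 and -0.47 in line 4, and that of Mrps34 was 0.026 in line 6 and -0.35 in line 4. Relative to genes of like abundance, the medians in lines 6 and 4 had opposite signs in 3 lists, at -0.045 and 0.086 for mitoribosome proteins with other names, -0.019 and 0.055 for translation factors, and -0.0065 and 0.048 for assembly and rRNA modification. Exons of Mrps34 overlap other genes in GENCODE.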

How the results depend on the processing

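The depth is unknown, so no counting limit can be given, and with 2 clones per group the precision rests on the spread shared between genes. Members past the test of KO against WT numbered 0 under every alternative run, with the replicate block (0 members, median log2 fold change -0.31), with the block on rescaled values and with the block and a robust spread included, so the pairing changed no call. With the replicate block the members' limma adjusted p was 0.239 to 0.666. The median log2 fold change of the members was -0.31 and became 0.00046 on values centred on the median tested gene, 0.041 on values relative to genes of like abundance and 0.044 after quantile normalization (the replicate block on centred or like-abundance values left 0.00046 and 0.041). Leaving out 1 library at a time gave -0.40 to -0.23. The 3 rescalings remove the shift of the median gene by construction. Members past the test of line 6 against line 4 numbered 2 as reported, 0 without a filter, 19 on centred values, 9 relative to genes of like abundance, 15 after quantile normalization, 0 without the genotype covariate and 0 to 1 without 1 library, in fits that also drop genotype and were chosen after seeing the data; the cause was not tested. Members below genes of like abundance in both lines numbered 9, and 15 against the median of all tested non-member genes, where the line 6 median of the members was -0.0032. With neighbours matched on transcript length too, chosen after seeing the data, the medians were 0.032 in line 6 and 0.054 in line 4.

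The direction of KO against WT turned in single members where the scale changed. On centred values, with or without the replicate block, the log2 fold change became 0.073 for Mrps24, 0.15 for Mrps28, 0.11 for Mrpl34, 0.11 for Mrps31, 0.20 for Mrpl55, 0.052 for Mrpl42, 0.023 for Mrpl24, 0.18 for Mrpl41, 0.10 for Mrpl19, 0.052 for Mrps25, 0.056 for Mrpl17, 0.037 for Mrpl20, 0.031 for Mrpl37, 0.048 for Mrpl32, 0.036 for Mrps36, 0.0054 for Mrps21 and 0.012 for Mrps18b. On values relative to genes of like abundance, with or without the replicate block, it became 0.11 for Mrps24, 0.17 for Mrps28, 0.14 for Mrpl34, 0.14 for Mrps31, 0.21 for Mrpl55, 0.12 for Mrpl42, 0.095 for Mrpl24, 0.046 for Mrpl18, 0.16 for Mrpl41, 0.096 for Mrpl19, 0.043 for Mrps25, 0.082 for Mrpl17, 0.074 for Mrpl20, 0.023 for Mrps11, 0.059 for Mrpl37, 0.080 for Mrpl32, 0.036 for Mrpl52, 0.073 for Mrps36, 0.033 for Mrps21 and 0.053 for Mrps18b. After quantile normalization it became 0.12 for Mrps24, 0.18 for Mrps28, 0.15 for Mrpl34, 0.16 for Mrps31, 0.23 for Mrpl55, 0.11 for Mrpl42, 0.079 for Mrpl24, 0.051 for Mrpl18, 0.16 for Mrpl41, 0.097 for Mrpl19, 0.043 for Mrps25, 0.047 for Mrpl17, 0.089 for Mrpl20, 0.029 for Mrps11, 0.072 for Mrpl37, 0.081 for Mrpl32, 0.051 for Mrpl52, 0.076 for Mrps36, 0.037 for Mrps21 and 0.074 for Mrps18b. Without KO replicate 1 it became 0.057 for Mrpl55, 0.049 for Mrpl41 and 0.039 for Mrpl20, without WT replicate 1 0.21 for Mrps24 and 0.052 for Mrpl32, and without WT replicate 2 0.021 for Mrpl55 and 0.0017 for Mrpl41. Over the left-out libraries the lowest values were -0.67 for Mrps24, -0.27 for Mrpl55, -0.29 for Mrpl41, -0.58 for Mrpl20 and -0.57 for Mrpl32. The other 304 values of named members kept their direction and their side of the threshold.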

Other observations

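Genes beside the members that differed between the lines were read after those members' values were seen. On chromosome 7, the imprinted non-coding RNA H19, next to Mrpl23 in the gene order of the annotation used, was listed at 6.39 and 13.8 FPKM in the KO and WT clones of line 6, against 20.6 and 26.9 FPKM in the KO and WT clones of line 4. Each clone of line 6 lay below each clone of line 4 (log2 fold change of line 6 over line 4 -1.23, limma adjusted p = 1.55e-06), as for Mrpl23. Further on, Igf2 lay at 0.028, and on the other side of Mrpl23 Lsp1 lay at -0.087 and Ctsd at -0.16. Igf2, at 1.37 to 1.47 FPKM, and Lsp1, at 1.12 to 1.54 FPKM, were near the filter of 1 FPKM, where this scale understates changes. On chromosome 11, the log2 fold changes of genes near Mrps24 were -0.42 for Urgcp, whose exons overlap it, -0.49 for Ccdc117 and 0.49 for Dbnl, with limma adjusted p of 0.223, 0.12 and 0.130. On chromosome 4, Ssbp3 beside Mrpl37 had a log2 fold change of 0.77 (limma adjusted p = 0.00539) and Hspb11, near it on the other side, of -0.78 (limma adjusted p = 0.00695), while Mrpl37 itself lay at 0.49. The genes near Mrps24 named here did not pass. Near Mrps11 and Mrpl20, on chromosomes 7 and 4, no gene read passed, with log2 fold changes of -0.24 to 0.25 and of -0.17 to 0.22. Tmem59 and Lrrc42, which lie between Mrpl37 and Hspb11, did not pass either, at -0.24 and -0.15. Of all tested genes 9.13% passed in either direction. Of the neighbours named here that passed, H19 and Ssbp3 differed in the direction of their member and Hspb11 in the opposite one.

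Across the 76 members, KO minus WT relative to genes of like abundance had r = -0.22 with mean log2 level in line 6 and r = -0.10 in line 4, and r = -0.15 and -0.083 with log2 transcript length, as descriptions over genes of the same libraries. Members' transcripts had a median length of 1038 bases, against 2084 bases for the 92.4% of tested genes with a length.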
